A study of Homo sapiens with 2 samples.

Results

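MicroRNAs (miRNAs) of the hairpins that lie inside the dynamin genes were followed in small RNA libraries of A375 cells, an established human melanoma line. The members were all listed rows of 5 hairpins, mir-199a-1 in DNM2, mir-199b in DNM1, and mir-199a-2, mir-214 and mir-3120 in DNM3, with 5p and 3p arms. They made up 9 of the 1546 rows of the table and 8 of its 1497 mature names. Cells were seeded at 1000000 per dish, given DMSO, the vehicle solvent, after 24 h and harvested after 48 h of it. The data hold 1 group of 2 libraries, termed independent replicates, with no untreated or drug-treated group, so no treatment effect was measured.

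Dynamins are GTPases that cut vesicles from membranes. Hairpins of the miR-199 family sit in their introns on the strand opposite to the gene. At DNM3, the noncoding transcript DNM3OS, known as a target of the mesenchymal factor TWIST1, carries mir-199a-2 and mir-214, while mir-3120 is read from the other strand over mir-214 and is a so-called mirror miRNA. MiR-199a is known as abundant in fibroblasts and other mesenchymal cells, and miR-199a and miR-214 have been described in melanoma progression.

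Sequences from RefSeq (GRCh38.p14) were found for 7 of the 8 mature names. They are shown because the assignment of reads to a locus depends on them, with the seed (bases 2 to 8, which pair with target RNAs) in capitals. The entry for hsa-miR-199b-5p is named only.
hsa-miR-199a-5p: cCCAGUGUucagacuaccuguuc
hsa-miR-199a-3p and hsa-miR-199b-3p: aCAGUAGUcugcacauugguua
hsa-miR-214-5p: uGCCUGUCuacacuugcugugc
hsa-miR-214-3p: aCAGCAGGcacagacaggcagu
hsa-miR-3120-5p: cCUGUCUGugccugcuguaca
hsa-miR-3120-3p: cACAGCAAguguagacaggca
MiR-199a-3p has the same sequence as miR-199b-3p, so their reads could come from any of 3 loci. Among the printed names only, the other 5 have seeds that differ from one another. MiR-199b-5p was not compared, though the mir-199b hairpin below also holds the bases CCAGUGU, the seed of miR-199a-5p. That seed can therefore not be called particular to miR-199a-5p.

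The 3 hairpins of the miR-199 family follow, with every mature name above in capitals.
mir-199a-1: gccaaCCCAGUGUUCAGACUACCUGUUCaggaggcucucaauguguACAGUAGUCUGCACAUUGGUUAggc
mir-199a-2: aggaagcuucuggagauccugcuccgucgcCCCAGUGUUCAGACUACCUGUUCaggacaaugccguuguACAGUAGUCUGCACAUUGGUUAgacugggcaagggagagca
mir-199b: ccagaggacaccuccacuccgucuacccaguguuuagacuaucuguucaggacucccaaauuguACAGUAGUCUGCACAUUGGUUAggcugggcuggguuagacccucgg
Mature miR-199a-3p occurred once in each hairpin, whereas mature miR-199a-5p occurred in mir-199a-1 and mir-199a-2 and in 0 copies in mir-199b. Reads of the 5p names can thus be told apart between the DNM1 locus and the DNM2 and DNM3 loci, and reads of the 3p names cannot. Aligned end to end, mir-199a-1 and mir-199b shared 64 bases (90.1% of the shorter), mir-199a-1 and mir-199a-2 shared 63 (88.7%), and mir-199a-2 and mir-199b shared 86 (78.2%). The entry of mir-199a-1 has 71 bases and the others have 110. These percentages thus cover unlike stretches and do not rank the pairs by likeness.

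In GENCODE 29 (GRCh38), MIR199B occupies chromosome 9, minus strand, positions 128244721 to 128244830. It is intronic in DNM1, whose gene runs on the plus strand. MIR199A1 occupies chromosome 19, minus strand, positions 10817426 to 10817496, intronic in the plus-strand gene DNM2. On chromosome 1, MIR199A2 (172144535 to 172144644) and MIR214 (172138798 to 172138907) are minus-strand hairpins, intronic in the plus-strand gene DNM3. Both overlap exons of DNM3OS transcripts, which run on the minus strand, and 5627 bases separate them. MIR3120 (172138808 to 172138888) lies on the plus strand, in the sense direction of DNM3. Hairpins were matched to these positions by name, and the authors' own build is not given in the sources used.

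Replicate 1 had 10816826 read assignments and replicate 2 had 15428446. Levels are in RPM, reads per 1000000 read assignments, so that 1 read equalled 0.0924 and 0.0648 RPM. A level of 10 RPM in both libraries, used as the expression threshold, was passed by 335 mature names. Of a list of 6 miRNAs set for the melanocyte lineage, 5 passed it, against 22.4% of all mature names. Among the 5 was miR-204-5p (2632 ± 190 RPM, SD, n = 2). Whether the list marks the lineage was not tested. MiR-211-5p, encoded in the melanocyte gene TRPM1, did not pass with 3 reads and 2 reads. These are bulk libraries, in which few cells with much of a miRNA and many cells with little of it cannot be told apart.

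The miR-199 names held nearly all reads of the 5 hairpins. With the 3p rows taken as 1 pool, the members had 16433 reads in replicate 1 and 24501 in replicate 2. This was 0.152% and 0.159% of the read assignments. The assignments count each copy of a name on several hairpins, so on a total of 1 value per mature name these shares would be higher. Of the members' reads, 99.9% in each library were reads of miR-199 names. The threshold was passed by miR-199a-3p, miR-199b-3p and miR-199b-5p, which is 3 of 8 names or 37.5%, against 22.4% of all mature names. The shared 3p sequence counts under both of its names here. Mir-199a-2 has no 5p row of its own. The median level over the 8 names was 1.75 RPM, against 0.588 RPM over all mature names.

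**Figure D1:**
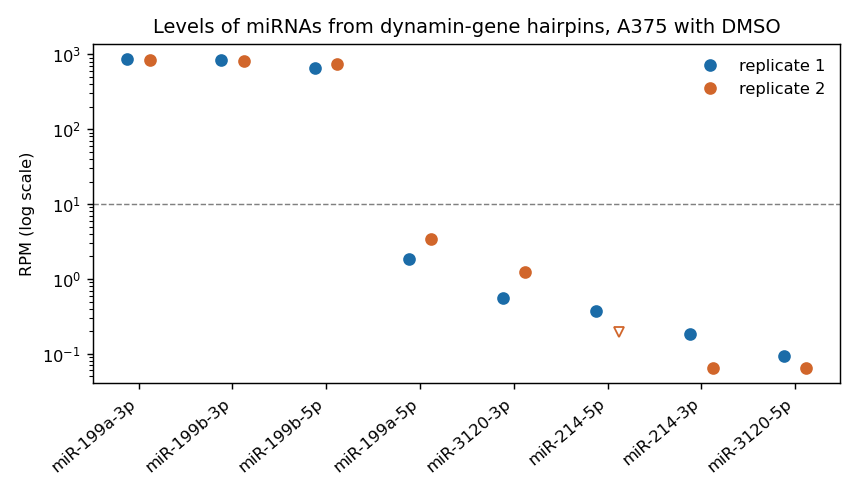
Level of each mature name in RPM (log axis), with 1 point per library and the dashed line at 10 RPM. The 3 names on the left lie between 663 and 853 RPM and the other 5 below 10 RPM. The open triangle stands for 0 reads of miR-214-5p in replicate 2, drawn at a floor of 3 reads, which is 0.194 RPM.

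MiR-199b-5p, the 5p arm of the DNM1 locus, stood at 663 RPM in replicate 1 (7172 reads) and 750 RPM in replicate 2 (11573 reads), with a mean of 707 ± 61.6 RPM (SD, n = 2). It ranked 77 and 74 among the mature names. MiR-199a-5p, the 5p arm of the DNM2 and DNM3 loci, stood at 1.85 RPM (20 reads, exact 95% Poisson interval 12.2 to 30.9) and 3.37 RPM (52 reads, 38.8 to 68.2). It ranked 536 and 457. Libraries of the 2 names did not overlap, and the intervals lay far apart. These intervals, like all intervals on reads here, cover counting error only.

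Of the 7192 reads of the 2 names in replicate 1, miR-199b-5p held 99.7% (exact Clopper-Pearson 95% interval 99.6 to 99.8). Of 11625 in replicate 2 it held 99.6% (99.4 to 99.7). There were 359 reads of miR-199b-5p for each read of miR-199a-5p in replicate 1 and 223 in replicate 2. This split did not differ past 0.05 between the libraries (two-sided Fisher's exact test, p = 0.069). All reads of miR-199a-5p were listed under mir-199a-1. Since mir-199a-2 holds the same mature sequence, that row does not show that DNM2 rather than DNM3 gave the reads.

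The split was then set beside those of other paralogues. Pairs were formed of miR names with the same number and arm and a different letter, with at least 100 RPM for the higher name. Names of the let-7 family and names with a further copy number were left out. Names without a row were also left out, so splits with an absent paralogue do not enter the rank. Over these 60 pairs, the median log2 ratio (pseudocount 1 RPM) was 2.82. The ratio of miR-199b-5p to miR-199a-5p was 7.61, number 7 from the top, after pairs such as miR-20a-5p over miR-20b-5p (9.04) and miR-99b-5p over miR-99a-5p (8.18). Pairs of one family share members, and this comparison was chosen after the values had been seen.

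The 3p arm of the miR-199 family is best known as a repressor of MET and MTOR. Its 3 rows held almost the same values. The rows of mir-199a-1 and mir-199b were equal in both libraries, 842 RPM (9109 reads) and 824 RPM (12717 reads). The row of mir-199a-2 was higher, with 853 RPM (9228 reads) and 833 RPM (12855 reads). These rows are therefore read as 1 pool at the highest row, 843 ± 14.1 RPM, rank 70 in each library. A sum of the 3 rows, an alternative added after seeing the data, would give 2510 RPM and appears to count most reads more than once.

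The excess of the mir-199a-2 row was 119 reads in replicate 1, or 1.29% of its reads (exact 95% interval 1.07 to 1.54), and 138 in replicate 2, or 1.07% (0.903 to 1.27). The share did not differ past 0.05 between the libraries (two-sided Fisher's exact test, p = 0.14). To show where the loci differ beside this arm, the hairpins are printed from the mature 3p sequence (capitals) to their end.
mir-199a-1: ACAGUAGUCUGCACAUUGGUUAggc
mir-199a-2: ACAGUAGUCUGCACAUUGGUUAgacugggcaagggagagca
mir-199b: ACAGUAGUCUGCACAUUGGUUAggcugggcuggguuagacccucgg
Counted from 1 at the 5′ end of the mature sequence, mir-199a-1 and mir-199b had 0 differences over the 25 bases they share, and the first difference of mir-199a-2 from mir-199b was G24A, 2 bases past the mature end. The reads themselves were not used here, so whether the excess reads carry that base was not tested.

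Reads of the 5p names and of the 3p pool were close in number. Both 5p names together held 43.8% (exact 95% interval 43.0 to 44.6) of the miR-199 reads in replicate 1 and 47.5% (46.9 to 48.1) in replicate 2, a mean of 45.6% ± 2.61 (SD, n = 2). For the mir-199b hairpin, the log2 ratio of 5p to 3p was -0.34 and -0.14, a mean of -0.24 ± 0.15, which means that the 3p arm was 1.18-fold higher. Among the 137 hairpins that had rows for both arms and summed to 100 RPM or more, this ratio was number 7 from the smallest in absolute size, where the median was 5.55. Nearest to it were mir-3065 (-0.24 ± 0.07), mir-151a (-0.22 ± 0.05) and mir-424 (-0.12 ± 0.15).

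For mir-199a-1 the same ratio was -8.21 and -7.56, a mean of -7.89 ± 0.46 with the pseudocount of 1 RPM. With a pseudocount of 10 RPM it was -6.07 and with summed copies -8.89, so its direction held and its size depended on both choices. Of the 137 hairpins, 34.3% favoured the 3p arm by over 2-fold in each library, as mir-199a-1 did, and 58.4% the 5p arm. Mir-199b fell in neither class. Both member ratios take the 3p reads that the 3 loci share, so neither is the arm ratio of its own locus. The ratio of 5p to 3p reads of mir-199b shifted by 0.21 on the log2 scale from replicate 1 to replicate 2 (two-sided Fisher's exact test, adjusted p = 1.5e-11), while the median size of such a shift over the 137 hairpins was 0.33. Of 386 hairpins with at least 10 reads, 21.5% had an adjusted p under 0.05.

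**Figure D2:**
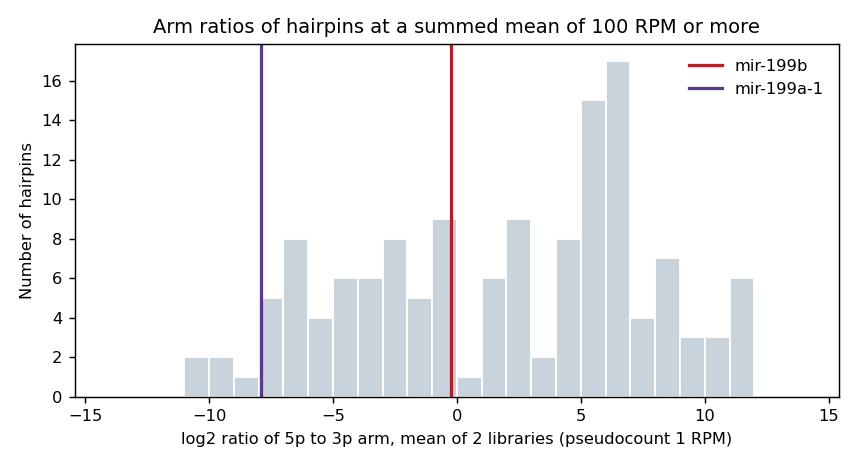
Number of hairpins (vertical) by the log2 ratio of 5p to 3p arm (horizontal), for the 137 hairpins at 100 RPM or more. The line of mir-199b stands at -0.24, near equal arms, and that of mir-199a-1 at -7.89, both with 3p reads that belong to 3 loci.

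MiR-214 shares the DNM3OS transcript with mir-199a-2. MiR-214-3p had 2 reads (0.185 RPM, exact 95% Poisson interval 0.0224 to 0.668) and 1 read (0.0648 RPM, 0.00164 to 0.361). MiR-214-5p had 4 reads (0.370 RPM, 0.101 to 0.947) and 0 reads (0 RPM, 0 to 0.239). In each library both arms of mir-214 lay below miR-199a-5p, and each interval ended below 1 RPM. No arm preference can be read from so few reads. The mean ± SD ranges of miR-214-5p, miR-214-3p and miR-3120-5p overlapped, so their order was not resolved, and that of miR-3120-3p (0.893 ± 0.479 RPM) overlapped the range of miR-214-5p (0.185 ± 0.261 RPM).

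MiR-3120, known to act on the clathrin-uncoating factors HSC70 and auxilin, lies antisense to mir-214. All 81 bases of its hairpin overlap that of mir-214 and are perfectly complementary to it. The hairpins are shown with their arms in capitals.
mir-214: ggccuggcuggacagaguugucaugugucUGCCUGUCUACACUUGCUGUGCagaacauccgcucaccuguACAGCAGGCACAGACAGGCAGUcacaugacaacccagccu
mir-3120: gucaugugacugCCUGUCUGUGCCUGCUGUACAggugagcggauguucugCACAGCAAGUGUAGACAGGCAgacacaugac
MiR-3120-3p is complementary to miR-214-5p over all of its 21 bases, and miR-3120-5p to miR-214-3p over 18 bases.

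MiR-3120-3p had 6 reads (0.555 RPM, exact 95% Poisson interval 0.204 to 1.21) and 19 reads (1.23 RPM, 0.741 to 1.92). MiR-3120-5p had 1 read in each library. Of the reads on both strands, miR-3120 held 7 of 13 in replicate 1, or 53.8% (exact Clopper-Pearson interval 25.1 to 80.8), and 20 of 21 in replicate 2, or 95.2% (76.2 to 99.9). The plus strand thus had more reads in each library, but in replicate 1 the interval includes an equal split.

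**Figure D3:**
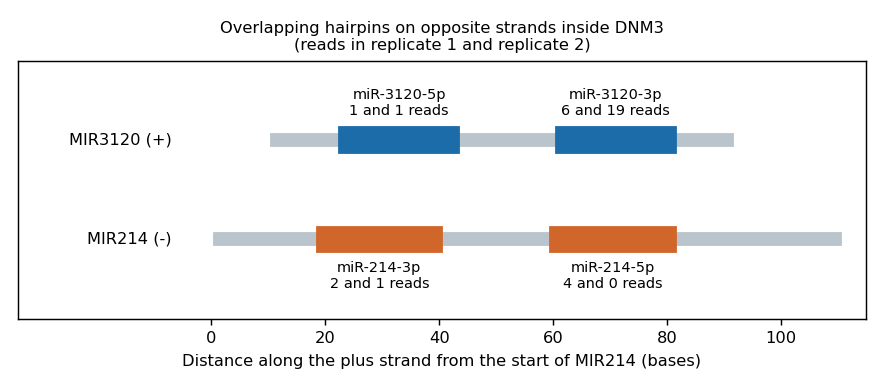
Map of the MIR214 (minus strand) and MIR3120 (plus strand) hairpins as grey bars with their mature arms as boxes, by distance in bases from the start of MIR214. Read counts of replicates 1 and 2 are written at each arm, from 0 for miR-214-5p in replicate 2 to 19 for miR-3120-3p.

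Other pairs of this kind were then counted by level. RefSeq positions and the table gave 11 pairs of hairpins that overlap on opposite strands. Some of them hold a mature name that is listed on more than 1 hairpin, so its reads cannot be set to 1 locus. Examples are miR-24-3p of mir-24-1, listed on 2 hairpins, and miR-3119, carried by both hairpins of its pair. In 6 of the 11 pairs, mir-214 with mir-3120 included, neither hairpin reached a summed mean of 10 RPM. In 4 only 1 hairpin did, and in 1 pair, mir-3065 with mir-338, both did. Of all mature names, only 22.4% reached 10 RPM in both libraries, so low levels were common in the whole table. The counts are therefore not read as a trait of such pairs. Mir-423, for example, stood at 5832 RPM against 0.125 RPM for mir-3184 on its other strand. These pairs were chosen after the values had been seen.

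The annotation has 4 other hairpins inside DNM1 and DNM2. MIR3154, on the strand of MIR199B and 116 bases from it inside DNM1, gave 19 reads of miR-3154 in replicate 1 and 27 in replicate 2, a near equal RPM (1.76 and 1.75). MIR4748, in the sense direction of DNM2, gave 1 read in each library, and MIR6793, also in that direction, gave miR-6793-3p with 0 reads and 1 read. The other row of MIR6793, miR-6793-5p, had a mean of 0.0324 RPM. MIR638 had no row and was not analysed here.

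Outside the members, names that share a printed seed had few reads. MiR-3129-5p, with the seed of the miR-199 3p arm, had 2 reads and 3 reads (0.185 and 0.194 RPM). MiR-3619-5p, with the seed of miR-214-3p, had 9 reads and 23 reads (0.832 and 1.49 RPM), more than miR-214-3p itself in each library. The third, miR-761, had no row. Seeds were searched in the 1317 of 1497 names that had a RefSeq sequence, and miR-199b-5p was not one of them. Among the searched names, reads of names with the CAGUAGU seed were almost all miR-199 3p reads, while those with CAGCAGG were mostly miR-3619-5p. The sequences of the printed seed mates are as follows.
hsa-miR-3129-5p: gCAGUAGUguagagauugguuu
hsa-miR-3619-5p: uCAGCAGGcaggcuggugcagc

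**Figure D4:**
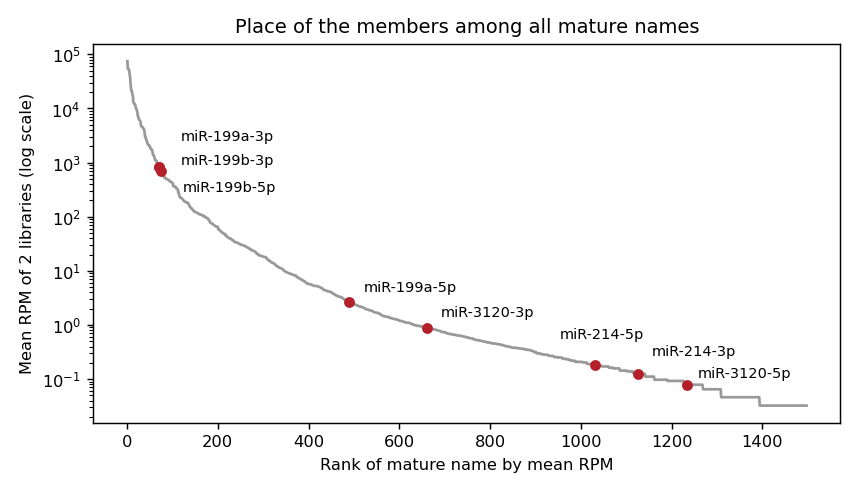
Mean RPM of all 1497 mature names (grey line, log axis) against their rank, with the 8 members as red points. The miR-199 3p names and miR-199b-5p stand at ranks 70 to 76, miR-199a-5p at 490 and miR-3120-5p lowest at 1227.

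Levels were then set beside other miRNAs. In level, miR-23b-3p (734 ± 80.7 RPM), miR-941 (755 ± 156 RPM) and miR-301a-3p (624 ± 14.7 RPM) were nearest to miR-199b-5p. MiR-19b-3p (866 ± 50.3 RPM), miR-128-3p (895 ± 28.9 RPM) and miR-345-5p (913 ± 64.1 RPM) were nearest to miR-199a-3p. Nearness was the summed absolute difference of log2(RPM + 1) over the 2 libraries, which says nothing of a shared pattern. The ranges of mean ± SD of miR-199b-5p and miR-23b-3p overlapped, as did those of miR-199a-3p and miR-19b-3p.

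A list of 12 other miRNAs known from mesenchymal cells or cartilage had 11 with a row, of which 4 (36.4%) passed 10 RPM in both libraries, against 22.4% of all names, and 2 passed 100 RPM. The highest were both arms of the cartilage hairpin mir-140, miR-140-3p (10956 ± 91.7 RPM) and miR-140-5p (444 ± 39.8 RPM). They were followed by miR-143-3p of smooth muscle and fibroblasts (99.6 ± 6.71 RPM) and miR-409-3p of the imprinted cluster beside DLK1 (12.1 ± 2.58 RPM). The lowest were miR-379-5p (6 reads and 4 reads), miR-145-5p (3 reads and 2 reads), the neighbour of miR-143, and miR-382-5p (3 reads and 0 reads). The median of the list was 0.680 RPM, against 0.588 RPM over all mature names. The other 7 names of the list were below 1 RPM. Such levels were common in the table, where 593 of 1497 mature names reached 1 RPM in both libraries. Lists of other cell types had 2 of 7 epithelial names, 1 of 3 listed blood names, 2 of 2 endothelial names and 0 of 1 listed muscle name at the threshold. Their summed levels in the libraries were 54.4 and 70.8 RPM, 171 and 200 RPM, 186 and 265 RPM, and 0.647 and 0.130 RPM. The blood name at the threshold was miR-486-5p (171 and 200 RPM), which held nearly all of the blood sum. Of the other blood names, miR-142-3p had 4 reads and 5 reads, miR-451a had 1 read and 0 reads, and miR-223-3p and miR-144-3p had no row. The muscle names miR-1-3p and miR-206 had no row, and miR-133a-3p had 7 reads and 2 reads. The part of these cell types in the levels of the members was not tested.

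The difference between the libraries is the only error these data hold. Each name with at least 10 reads was tested against all other reads by a two-sided Fisher's exact test, with Benjamini-Hochberg adjustment over 869 names. This compares 2 libraries, not conditions. Of the 5 members tested, 0 differed with an adjusted p under 0.05 and by over 2-fold, against 4.60% of all names tested. By adjusted p alone it was 1 of 5, against 34.5%. With the libraries scaled by the median ratio of the expressed names it was 4 of 5, against 32.7%, so the members' count depended on the scaling. Of all names called by adjusted p alone, 38.7% were higher in replicate 2 with library totals and 53.9% with the median ratio.

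With library totals, miR-199b-5p was 1.13-fold higher in replicate 2 (adjusted p = 1.3e-15, Fisher's exact test). Its log2 difference of 0.18 was below the median of 0.24 over the 335 expressed names, of which 69.9% had an adjusted p under 0.05. MiR-199a-3p was 0.977-fold in replicate 2 (adjusted p = 0.19, Fisher's exact test). MiR-199a-5p was higher there by 0.84 on the log2 scale (adjusted p = 0.062, Fisher's exact test) and miR-3120-3p by 1.07 (adjusted p = 0.22, Fisher's exact test). The expressed names had a median ratio of 0.931 between replicate 2 and replicate 1. Relative to it, miR-199b-5p was 1.22-fold higher, miR-199a-3p turned to 1.05-fold higher (adjusted p = 0.0018, Fisher's exact test), as did miR-199b-3p (1.05-fold, adjusted p = 0.0011), and miR-199a-5p was 1.93-fold higher (adjusted p = 0.029, Fisher's exact test). The miR-199 3p direction between the libraries thus depended on the scaling.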

How the data were processed

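Small RNA of 2 replicate libraries of DMSO-treated A375 cells was sequenced. The submitters' processing notes list CASAVA 1.8 and cutadapt 1.2.1, a trimmer. Aligner, miRNA release, genome build and handling of multiply matching reads: not given in the sources used here. The authors deposited RPM per hairpin and mature name, with decimal commas. Each deposited column sums to 1000000, and every value was a whole multiple of the smallest (100% within 0.01 reads), which gave the reads. Adapter ligation is uneven between sequences, so levels compared between miRNAs are approximate. The columns were matched by the sample descriptions, with 0 other columns.

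Names on several hairpins took the highest copy. Logarithms used a pseudocount of 1 RPM. Fisher's exact tests (scipy 1.17.1, tested on simulated data) ran over all names or hairpins with at least 10 reads, with Benjamini-Hochberg adjustment and folds after adding 0.5 reads. Poisson and Clopper-Pearson intervals were 95% and the floor for 0 reads was 3 reads. Hairpins were aligned with Biopython 1.88. The replicates' origin is not described further, so their spread may be technical.

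The members, lists and naming rule (all members, their seed mates, the 3 nearest levels and arm ratios, and the extremes of the mesenchymal list) were chosen with earlier results of these data known. Alternatives were summed copies, other totals and scalings, other minima, pseudocounts and fold limits, and leaving out each replicate.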

Additional observations from a re-analysis of the deposited data

How the results depend on the processing

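Of 112 recomputed values over 22 results, 90 kept their direction and stayed within the spread between replicates or within 1.5 times a count, 21 moved and 1 reversed. Many of the 90 could not have moved. With 2 libraries, a level, ratio or share without 1 replicate always lies within the SD, so only its direction could change. For names on 1 hairpin, summed copies gave the main value again. The 90 are thus not a measure of how stable the results are. The level of miR-199b-5p moved to 907 RPM on a total of 1 value per mature name. That of miR-199a-3p moved to 1082 RPM on that total, to 911 RPM without the most abundant miRNA in the total and to 1676 RPM with its copies summed. The 5p to 3p ratio of mir-214 (0.0593 on the log2 scale) reversed to -0.0906 without replicate 1 and was 0.209 without replicate 2. With a fold limit of 1.5 and 3, 81 and 16 names differed between the libraries instead of 40, with 0 members at either limit. With a threshold of 1 RPM and 100 RPM, 593 and 161 names passed instead of 335, with 4 members at 1 RPM, where miR-199a-5p joined, and 3 at 100 RPM. At 100 RPM the mesenchymal list had 2 names instead of 4 and the melanocyte list 3 instead of 5. The ratio of mir-199a-1 moved from -7.89 to -6.07 with a pseudocount of 10 RPM and to -8.89 with summed copies. Scaling by the median ratio raised the members that differed between the libraries by adjusted p alone from 1 to 4 of 5, where the shared 3p sequence counts under both names. Hairpins with a preferred 5p arm were 48 at 1000 RPM instead of 80, and those with a preferred 3p arm 20 at 1000 RPM and 79 at 10 RPM instead of 47. Without 1 replicate, the share of miR-199b-5p among the 5p reads ranged from 99.6% to 99.7%. No paired analysis was possible because there is 1 group. Depth limits miR-214 and miR-3120, where 1 read equals 0.0924 or 0.0648 RPM.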
